A study of Homo sapiens with 8 samples.

Results

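The genes described here are 42 regulators of pre-mRNA splicing: 14 SR proteins and SR-like proteins (SRSF1 to SRSF12, TRA2A and TRA2B), 6 kinases that phosphorylate them (CLK1 to CLK4, SRPK1 and SRPK2), and 22 hnRNPs with their relatives PTBP1 and PTBP2. They were chosen by symbol, and all 42 symbols matched exactly 1 Ensembl identifier among the 58787 of the deposited count table. The study measured polyA RNA of IMR32 cells, an established MYCN-amplified human neuroblastoma line labelled as brain, neuroblast and genotype WT. Cells received CR31B, a rocaglate inhibitor of the RNA helicase eIF4A, at its IC50, or 0.1% DMSO as vehicle, and the labels give a 6 h time point for CR31B. Each group has 4 libraries, described as biological replicates. All of them are from 1 cell line with no alleles or agents besides these.

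SR proteins carry RNA-recognition domains and a tail rich in arginine and serine, and they mostly bind exonic enhancers and recruit the spliceosome. SRPK kinases phosphorylate that tail in the cytoplasm and so promote import into the nucleus, and CLK kinases phosphorylate it further inside the nucleus. The hnRNPs coat nascent RNA and often act against SR proteins by silencing exons. Many of these genes limit their own output by including a poison exon, an exon with a premature stop codon that sends the transcript to nonsense-mediated decay, or by keeping an intron. A gene-level read count adds up productive and decaying isoforms, so none of the values below separates them.

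Annotated poison exons are shown because gene-level counts cannot separate transcripts that carry them from the others. Whether these transcripts were present in the cells or entered the counts was not tested. In GENCODE release 29 (GRCh38), all 14 SR protein genes have at least 1 transcript annotated as a target of nonsense-mediated decay, as do 5 of the 6 kinase genes and 14 of the 22 hnRNP genes. Together 33 of the 42 genes have one (78.6%), beside 42.1% of the 13006 protein-coding genes tested, and the members also have more annotated transcripts (median 12, beside 7). A stricter search asked for an internal exon of such a transcript that holds its stop codon and overlaps no exon of any protein-coding transcript of the gene. It found 17 exons of 69 to 836 bases in 12 of the 42 genes: 6 SR protein genes, 3 kinase genes and 3 hnRNP genes. The search was run on the 42 genes only, so no share over all genes stands beside this count. It passes over exons that a protein-coding transcript overlaps, so a gene not found may still have a poison exon. Examples follow for 9 genes, each read 5′ to 3′ on the gene's strand from the first base of the exon to the end of the premature stop codon, which is in capitals.
SRSF3 (SRSF3-203, exon 4 of 7, 456 bases, chr6:36599821-36599854 shown, plus strand): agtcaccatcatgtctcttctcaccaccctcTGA
SRSF6 (SRSF6-202, exon 3 of 7, 268 bases, chr20:43459153-43459304 shown, plus strand): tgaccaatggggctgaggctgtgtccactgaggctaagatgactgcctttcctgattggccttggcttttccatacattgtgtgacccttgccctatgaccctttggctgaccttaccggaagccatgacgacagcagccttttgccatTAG
SRSF4 (SRSF4-204, exon 2 of 3, 195 bases, chr1:29160018-29160058 shown, minus strand): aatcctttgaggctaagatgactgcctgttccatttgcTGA
SRSF12 (SRSF12-202, exon 2 of 4, 347 bases, chr6:89106964-89107027 shown, minus strand): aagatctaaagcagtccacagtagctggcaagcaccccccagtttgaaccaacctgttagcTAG
CLK3 (CLK3-216, exon 2 of 8, 78 bases, chr15:74626989-74627050 shown, plus strand): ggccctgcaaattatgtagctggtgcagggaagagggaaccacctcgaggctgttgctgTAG
SRPK2 (SRPK2-206, exon 3 of 6, 136 bases, chr7:105306436-105306571 shown, minus strand): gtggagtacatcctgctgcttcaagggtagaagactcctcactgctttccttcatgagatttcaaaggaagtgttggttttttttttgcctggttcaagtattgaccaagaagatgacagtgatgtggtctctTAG
HNRNPU (HNRNPU-208, exon 4 of 6, 69 bases, chr1:244848809-244848856 shown, minus strand): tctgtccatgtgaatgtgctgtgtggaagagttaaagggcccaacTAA
HNRNPL (HNRNPL-202, exon 7 of 14, 70 bases, chr19:38841624-38841682 shown, minus strand): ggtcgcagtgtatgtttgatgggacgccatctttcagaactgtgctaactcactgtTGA
HNRNPLL (HNRNPLL-201, exon 6 of 13, 83 bases, chr2:38577956-38578002 shown, minus strand): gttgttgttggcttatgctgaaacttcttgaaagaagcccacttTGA
The stretches of SRSF4 and SRSF6, which encode close paralogues, share a run of 20 bases, tgaggctaagatgactgcct. The next longest run shared between different genes among the stretches found was 9 bases. The remaining poison exons of the strict search were in SRSF7, SRSF9 and CLK4, and further ones in SRSF3, SRSF4 and SRSF12.

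Total counts ran from 43687828 to 64715535 per library. The labels give the 2 replicate 1 libraries as paired-end and the 6 of replicates 2 to 4 as single-end. Pair 1, the library labelled CR31B replicate 1 set against the library labelled DMSO replicate 1, ran opposite to the other 3 pairs: 6901 genes had a Benjamini-Hochberg adjusted p under 0.05 when the single-end libraries were tested, and 98.9% of them had the opposite sign in pair 1. All 25 splicing regulators that passed had 1 sign in pairs 2 to 4 and the other in pair 1. Every direction below is that of the labels of replicates 2 to 4. The layout and whatever else sets pair 1 apart cannot be told apart, since the paired-end layout holds 1 library of each group. Whether the labels of these 2 libraries were exchanged was not tested, and the pair 1 values, the fit of all 8 libraries and the interaction below all depend on those labels. Neuroblastoma markers were present in all libraries (10 genes, summed level 5177 to 6943 CPM, counts relative to the library total after TMM scaling), among them MYCN at 2304 to 2966 CPM, while TH, the enzyme that starts catecholamine synthesis, was near 0 at 1.77 to 3.03 CPM. Of the 10, 4 were higher and 3 lower with CR31B in the single-end libraries, with GATA3 (log2 fold change 1.78) and HAND2 (0.97) above and DBH (-0.98) and CHGA (-0.38) below. Their summed level was 6297 to 6943 CPM in the single-end CR31B libraries and 5177 to 5451 CPM in the single-end DMSO libraries. The 10 mesenchymal and glial markers summed to 68.9 to 91.0 CPM with PRRX1 and SOX10 at 0. The 7 leukocyte and endothelial markers summed to 1.71 to 2.15 CPM in the single-end CR31B libraries and 3.28 to 3.70 CPM in the single-end DMSO libraries, with CD3E at 0. Their part in the results was not tested. In bulk samples, fewer cells of a type and less RNA per cell cannot be told apart.

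In the single-end libraries 25 of the 42 splicing regulators changed with CR31B (59.5%), 19 higher and 6 lower, by edgeR's quasi-likelihood test. Of all 16696 genes tested, 41.3% were called, 23.8% higher and 17.6% lower. Among the 9137 genes whose mean level reached that of the lowest member, 58.4% were called, 34.4% higher and 24% lower. The members' share called lay near that of this set, and 45.2% of the members were higher and 14.3% lower. The set has only a lower limit, so its genes were not matched to the members in level. The shares over all genes given below carry no such limit. The members' median log2 fold change was 0.13 (range -0.39 to 0.82), beside -0.01 over all genes tested. An absolute log2 fold change of at least 0.5 together with the call was found for 11 of the 42 (26.2%), beside 14.4% of all genes, and all 11 were higher: SRSF3, SRSF8, SRSF12, TRA2A, CLK2, SRPK2, HNRNPF, HNRNPH2, HNRNPLL, HNRNPU and HNRNPUL2. With offsets for GC content and length 9 passed both limits, beside 12.5% of all genes. Of these, 7 were higher, without SRPK2, HNRNPLL, HNRNPU and HNRNPUL2, and 2 were lower, CLK3 and PTBP2. The groups did not overlap for 27 of the 42 (64.3%), beside 52.1% of all genes. The split of 19 higher and 6 lower moved with the scaling: upper quartile and total count scaling each gave 15 higher and 11 lower, and offsets for GC content and length gave 17 higher and 7 lower (38.2% of all genes called). Over all genes the share of calls that were higher moved too, from 57.5% to 40% under upper quartile scaling, 43.1% under total count scaling and 49.5% under the offsets.

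**Figure D1:**
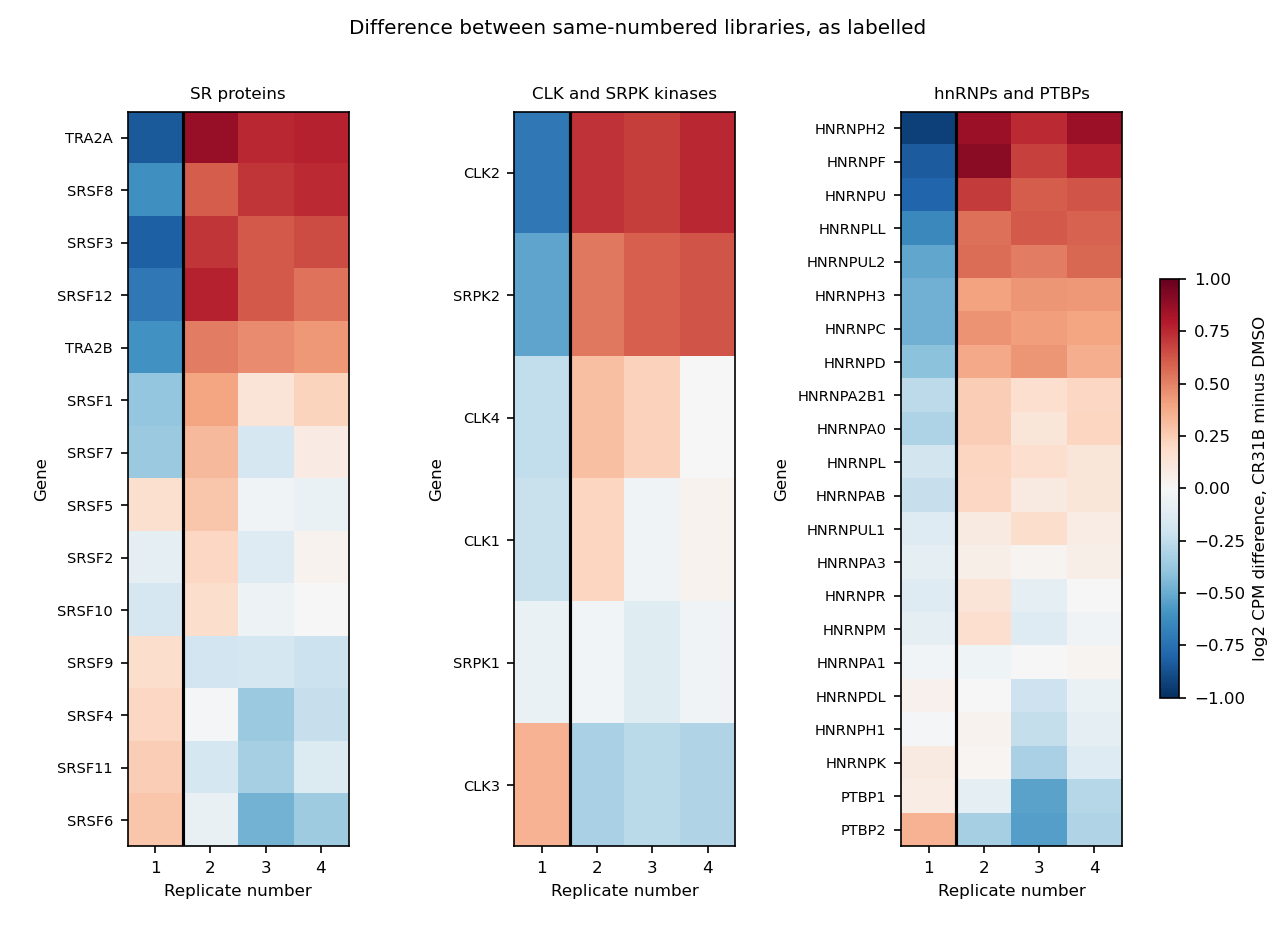
log2 difference in CPM, CR31B minus DMSO (prior count 1), drawn as a colour for each of the 42 genes. Columns are the replicate numbers, with a line between pair 1 and pairs 2 to 4. For the 25 genes that passed the test in replicates 2 to 4, pairs 2 to 4 share a sign and pair 1 has the other sign.

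**Figure D2:**
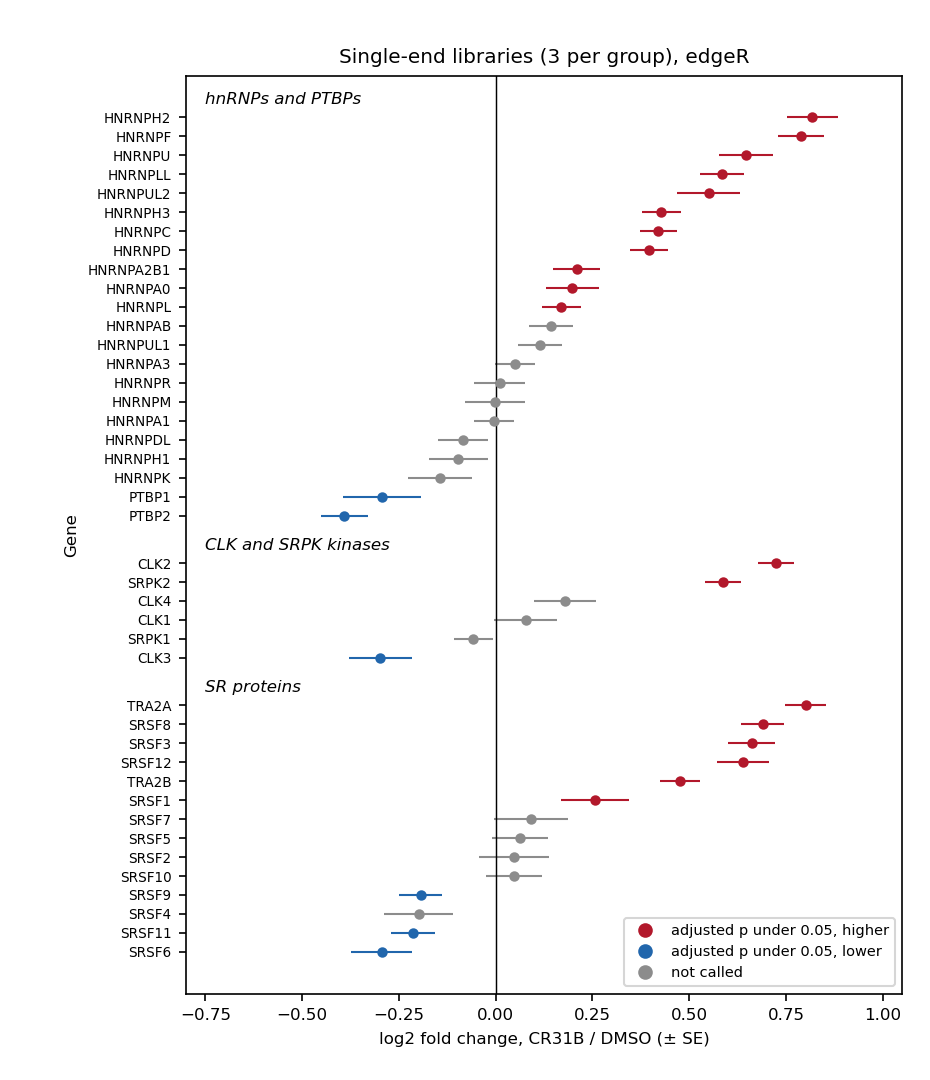
log2 fold change of each gene in the 6 single-end libraries with its standard error, by group, with genes past an adjusted p of 0.05 marked by direction. The estimates run from -0.39 for PTBP2 to 0.82 for HNRNPH2.

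Within both kinase families some members passed the test and others did not. CLK2 and SRPK2 rose, CLK3 fell, and CLK1, CLK4 and SRPK1 did not pass the test, with a median log2 fold change of 0.13 over the 6. CLK2, a nuclear kinase of SR proteins, stood at 155, 156 and 162 CPM in CR31B replicates 2, 3 and 4 and at 94.1, 96.5 and 96.0 CPM in the DMSO replicates 2, 3 and 4; values are given in this replicate order throughout. The 2 sets did not overlap, and the log2 fold change was 0.72 ± 0.046 (SE; adjusted p = 2.19e-06). In pair 1 the levels were the other way round, 102 CPM under CR31B and 167 CPM under DMSO. SRPK2, a cytoplasmic SR kinase of high level in neurons, stood at 115, 118 and 119 CPM with CR31B and 79.5, 78.0 and 77.4 CPM with DMSO. The gap was again far wider than the spread, with a log2 fold change of 0.59 ± 0.046 (SE; adjusted p = 6.41e-06), and pair 1 gave 78.3 CPM with CR31B and 113 CPM with DMSO.

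CLK3 stood at 30.5, 28.4 and 33.3 CPM with CR31B and at 38.1, 34.3 and 41.0 CPM with DMSO. The sets were separate but close, and the gene fell by 0.30 ± 0.081 (SE; log2, adjusted p = 0.0134), while in pair 1 the CR31B library held 37.5 CPM and the DMSO library 29.4 CPM. The call for CLK3 was lost without DMSO replicate 4 (adjusted p = 0.0655), and with offsets for GC content and length the estimate was -0.55 (adjusted p = 0.000421). CLK1, whose transcript is known for retained introns, stood at 65.9, 52.7 and 62.5 CPM with CR31B and 56.8, 54.1 and 60.9 CPM with DMSO, so its groups overlapped (log2 fold change 0.08 ± 0.082, SE; adjusted p = 0.484). In pair 1 it was 55.5 CPM with CR31B and 64.9 CPM with DMSO. CLK4, the kinase of lowest level per kilobase, stood at 14.2, 13.9 and 12.8 CPM with CR31B and 11.5, 11.9 and 12.8 CPM with DMSO. Its lowest CR31B value and its highest DMSO value were nearly equal, the log2 fold change was 0.18 ± 0.081 (SE; adjusted p = 0.102), and pair 1 gave 11.4 CPM with CR31B and 13.6 CPM with DMSO. SRPK1, the most abundant of the 6 kinases per kilobase of exon, stood at 223, 210 and 229 CPM with CR31B and 227, 228 and 234 CPM with DMSO. These sets overlapped and pair 1 was 222 and 233 CPM (log2 fold change -0.06 ± 0.050, SE; adjusted p = 0.388). With offsets for GC content and length the SRPK1 estimate was -0.21 and passed the test (adjusted p = 0.0206).

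**Figure D3:**
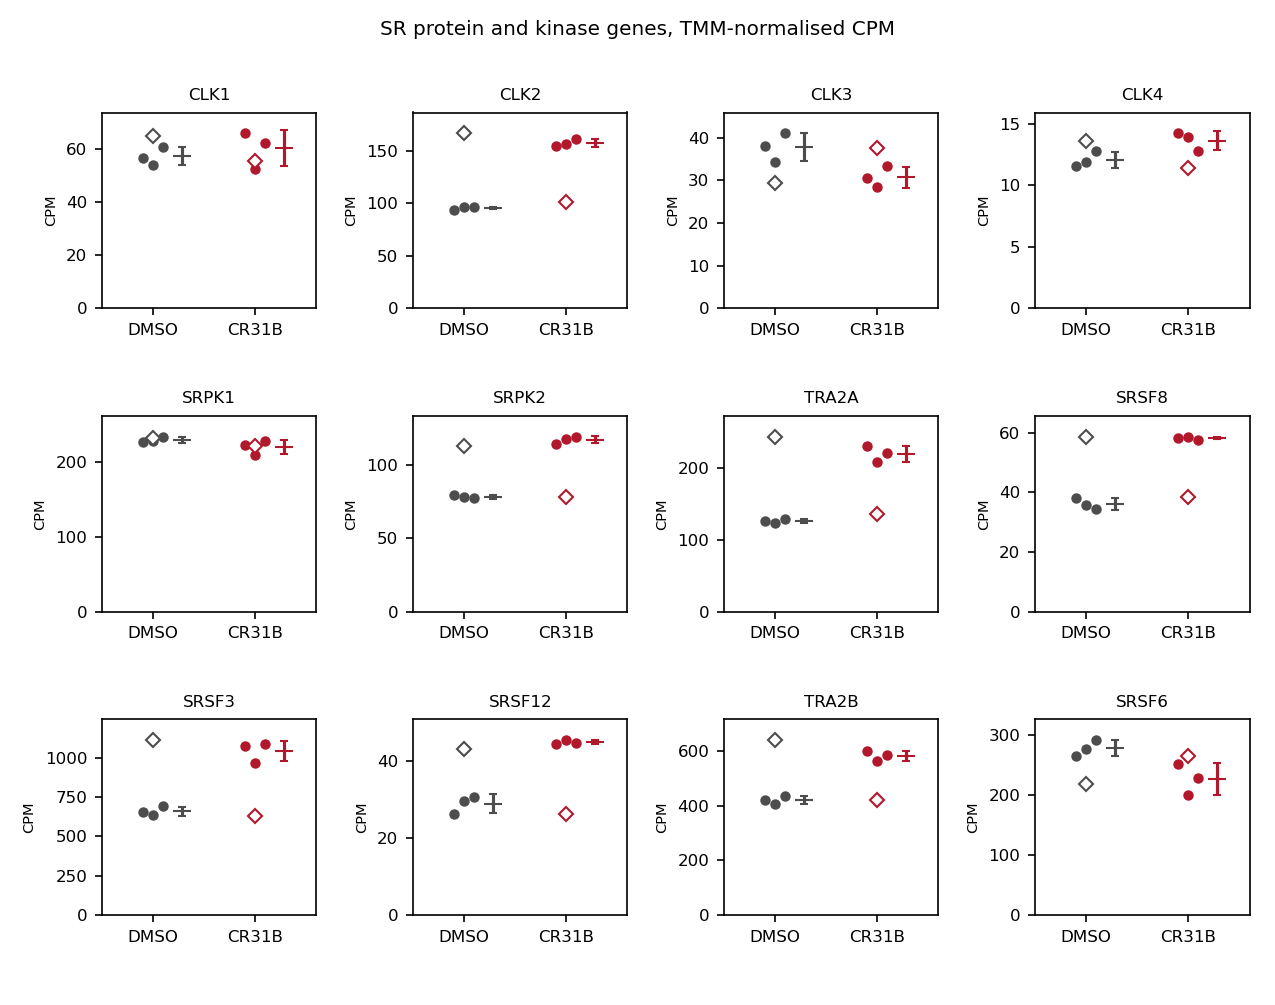
TMM-normalised CPM in each library for the 6 kinases and for TRA2A, SRSF8, SRSF3, SRSF12, TRA2B and SRSF6, with replicates 2 to 4 as filled dots, replicate 1 as an open diamond and a bar for the mean ± SD of replicates 2 to 4 (n = 3). For CLK2 and SRPK2 each diamond sits with the dots of the other group, and for CLK1 and SRPK1 the groups overlap.

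Of the 14 SR protein genes 6 rose, 3 fell and 5 did not pass the test, with a median log2 fold change of 0.08. The 6 that rose were TRA2A, SRSF8, SRSF3, SRSF12, TRA2B and SRSF1, and the 3 that fell were SRSF6, SRSF11 and SRSF9. TRA2A, which with its paralogue TRA2B binds GAA-rich exonic enhancers, had the highest fold change of the SR group. It stood at 230, 207 and 220.0 CPM with CR31B and 125, 123 and 129 CPM with DMSO, a 1.74-fold difference (log2 0.80 ± 0.053, SE; adjusted p = 2.7e-06), and pair 1 gave 136 CPM with CR31B and 243 CPM with DMSO. TRA2B stood at 599, 562 and 584 CPM with CR31B and 419, 404 and 433 CPM with DMSO. Its sets were also apart, with a log2 fold change of 0.48 ± 0.052 (SE; adjusted p = 5.08e-05), and its pair 1 levels were 419.5 CPM with CR31B and 638 CPM with DMSO.

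SRSF3, the smallest SR protein and a regulator of its own poison exon, stood at 1070.0, 966 and 1083 CPM with CR31B and 653, 632 and 689 CPM with DMSO. The lowest CR31B value lay well above the highest DMSO value, and the means were 1040 ± 64.4 and 658 ± 28.6 CPM (SD, n = 3), a log2 fold change of 0.66 ± 0.062 (SE; adjusted p = 1.9e-05). In pair 1 SRSF3 was 629 CPM with CR31B and 1110 CPM with DMSO. SRSF8, encoded by a retrocopy of SRSF2, stood at 58.4, 58.6 and 57.7 CPM with CR31B and 38.3, 35.7 and 34.4 CPM with DMSO. The CR31B values were nearly identical and all above DMSO, with a log2 fold change of 0.69 ± 0.056 (SE; adjusted p = 7.49e-06), and pair 1 read 38.3 CPM with CR31B and 58.5 CPM with DMSO. SRSF2 itself, the SR gene of highest level per kilobase, stood at 580.0, 449 and 560 CPM with CR31B and 502, 491 and 545 CPM with DMSO. The SRSF2 groups overlapped (log2 fold change 0.05 ± 0.090, SE; adjusted p = 0.705), and pair 1 gave 496 CPM with CR31B and 528 CPM with DMSO.

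SRSF12, a relative of SRSF10 that can repress splicing, stood at 44.4, 45.3 and 44.7 CPM with CR31B and 26.1, 29.7 and 30.7 CPM with DMSO. It rose by a log2 fold change of 0.64 ± 0.067 (SE; adjusted p = 4.23e-05) with no overlap. SRSF10 itself was at 0.05 (adjusted p = 0.634), and the difference between these 2 genes was not tested. In pair 1 SRSF12 was 26.2 CPM with CR31B and 43.0 CPM with DMSO. SRSF6, whose poison exon is printed above beside that of SRSF4, stood at 252, 199 and 227 CPM with CR31B and 265, 277 and 291 CPM with DMSO. The highest CR31B library was close to the lowest DMSO library, and SRSF6 fell by 0.29 ± 0.079 (SE; log2, adjusted p = 0.0125). This call was lost without DMSO replicate 4 (adjusted p = 0.0548), and the estimate was -0.45 with offsets for GC content and length. In pair 1 SRSF6 was 265.0 CPM with CR31B and 219 CPM with DMSO.

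SRSF11, a regulator of neuronal microexons, stood at 259, 229 and 247 CPM with CR31B and 292, 289 and 271 CPM with DMSO, and pair 1 gave 280.1 CPM with CR31B and 236 CPM with DMSO. SRSF9, a small SR protein, stood at 199, 183 and 194 CPM with CR31B and 228, 207 and 226 CPM with DMSO, with 216 and 191 CPM in pair 1. Neither gene's groups overlapped, but the nearest libraries of the 2 groups were close. SRSF11 fell by 0.21 ± 0.058 (SE; log2, adjusted p = 0.0133), and SRSF9 fell by 0.19 ± 0.056 (SE; log2, adjusted p = 0.0186). The SRSF9 call was lost with offsets for GC content and length (log2 fold change -0.07, adjusted p = 0.516). It was also lost without DMSO replicate 2 (adjusted p = 0.069) and without DMSO replicate 4 (adjusted p = 0.0832). SRSF9 was called under 12 of the 16 alternatives run. SRSF11 was called under each of the 16 and was at -0.34 with the offsets. SRSF1, the founding SR protein and a splicing activator, was called higher at 0.26 ± 0.087 (SE; log2, adjusted p = 0.0365) although its groups overlapped at the lowest CR31B value of 290 CPM and the highest DMSO value of 304 CPM. That gene shares 56.6% of its exonic bases with another gene on its strand, and it was called under 7 of the 16 alternatives, so its value is uncertain. The 5 genes that did not pass were SRSF2, SRSF4, SRSF5, SRSF7 and SRSF10, with log2 fold changes from -0.20 to 0.09. The lowest of these was SRSF4, at 102, 80.3 and 99.3 CPM with CR31B and 103, 104 and 117 CPM with DMSO. It missed the threshold (adjusted p = 0.0971) although its groups did not overlap, and it passed when the replicate number was a block (adjusted p = 0.0168).

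Of the 22 hnRNP and PTBP genes 11 rose, 2 fell and 9 did not pass the test, with a median log2 fold change of 0.16. HNRNPF and HNRNPH2, which bind runs of guanines, had the highest fold changes. HNRNPF stood at 454, 421 and 461 CPM with CR31B and 242, 262 and 270.0 CPM with DMSO, a 1.73-fold difference (log2 0.79 ± 0.059, SE; adjusted p = 5.22e-06), and pair 1 read 243 CPM with CR31B and 433 CPM with DMSO. HNRNPH2 stood at 108, 118 and 118 CPM with CR31B and 59.9, 70.3 and 65.4 CPM with DMSO, a 1.76-fold difference (log2 0.82 ± 0.066, SE; adjusted p = 7.49e-06), and pair 1 read 58.0 CPM with CR31B and 110.5 CPM with DMSO. Both genes were separated from DMSO without overlap. HNRNPH2 shares 16.3% of its exonic bases with the readthrough gene RPL36A-HNRNPH2, so part of its reads could be assigned to either. HNRNPH3, another member of that family, stood at 549, 585 and 579 CPM with CR31B and 416, 430 and 429 CPM with DMSO. It rose by a log2 fold change of 0.43 ± 0.050 (SE; adjusted p = 7.85e-05), with 440.0 CPM under CR31B and 614 CPM under DMSO in pair 1. HNRNPH1, the most similar paralogue of HNRNPH2, did not pass: it stood at 678, 589 and 707 CPM with CR31B and at 662, 695 and 756 CPM with DMSO (log2 fold change -0.10, adjusted p = 0.346).

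HNRNPU, a nuclear matrix protein that binds RNA and chromatin, stood at 1950, 2039 and 2155 CPM with CR31B and 1199, 1337 and 1392 CPM with DMSO. Its groups did not overlap, with a log2 fold change of 0.65 ± 0.069 (SE; adjusted p = 4.35e-05), and pair 1 gave 1255 CPM with CR31B and 2176 CPM with DMSO. The HNRNPU estimate was 0.43 with offsets for GC content and length. Its relative HNRNPUL2 stood at 29.4, 33.4 and 33.6 CPM with CR31B and 19.9, 23.4 and 22.5 CPM with DMSO. It rose by a log2 fold change of 0.55 ± 0.081 (SE; adjusted p = 0.000372), with 20.4 and 29.2 CPM for CR31B and DMSO in pair 1. HNRNPUL2 shares 44.15% of its exonic bases with the readthrough gene HNRNPUL2-BSCL2, which makes its value uncertain, and HNRNPUL1 was at 0.11 (adjusted p = 0.139).

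HNRNPLL, a repressor of CD45 exons in lymphocytes, stood at 136, 135 and 147 CPM with CR31B and 93.1, 88.1 and 97.7 CPM with DMSO. It rose by a log2 fold change of 0.59 ± 0.057 (SE; adjusted p = 2.58e-05) without overlap, and pair 1 gave 93.7 CPM with CR31B and 147 CPM with DMSO. Its paralogue HNRNPL, which binds CA repeats, rose by 0.17 ± 0.049 (SE; log2, adjusted p = 0.0188), and was called under 11 of the 16 alternatives. HNRNPC, which binds uridine tracts and keeps Alu sequences from becoming exons, stood at 1194, 1200 and 1191 CPM with CR31B and 876, 899 and 907 CPM with DMSO. The CR31B values were tightly grouped above DMSO (log2 fold change 0.42 ± 0.048, SE; adjusted p = 7.53e-05), and pair 1 gave 876.2 CPM with CR31B and 1224 CPM with DMSO. The HNRNPC estimate was 0.26 with offsets for GC content and length. HNRNPD, also called AUF1 and a binder of AU-rich elements, stood at 818, 846 and 840 CPM with CR31B and 628, 622 and 653 CPM with DMSO. It rose by a log2 fold change of 0.40 ± 0.049 (SE; adjusted p = 0.000124), with 579 and 768 CPM for CR31B and DMSO in pair 1, while its paralogue HNRNPDL did not pass (log2 fold change -0.08, adjusted p = 0.33).

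**Figure D4:**
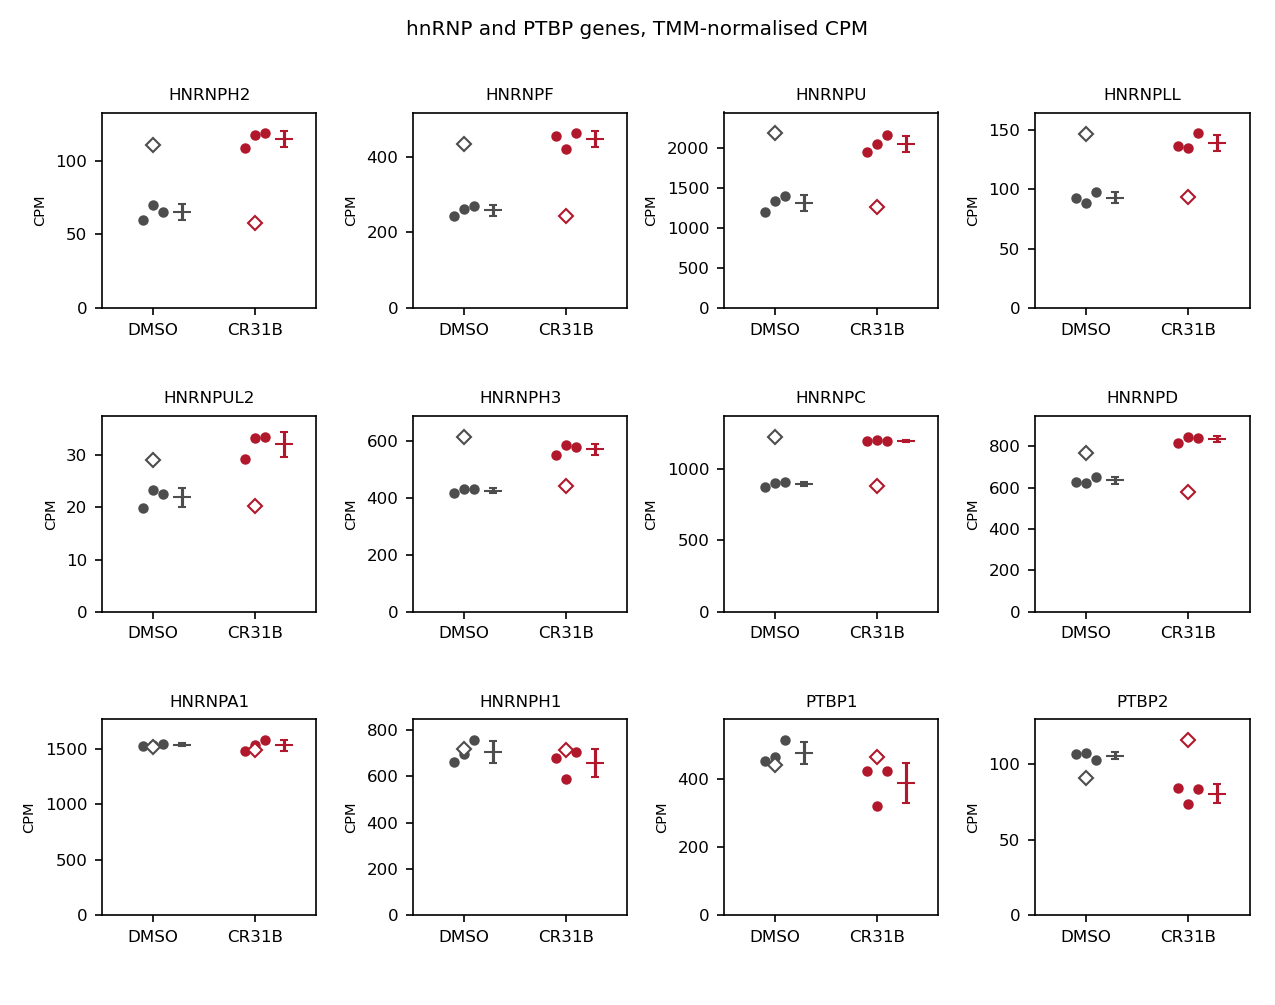
TMM-normalised CPM in each library for hnRNP and PTBP genes, drawn as in the plot of SR protein and kinase levels, with the mean ± SD of replicates 2 to 4 (n = 3). HNRNPF, HNRNPH2 and HNRNPU show 3 CR31B dots above all DMSO dots and the replicate 1 diamonds exchanged, and HNRNPA1 is level across libraries.

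The remaining 2 genes called higher were HNRNPA2B1 (log2 fold change 0.21, adjusted p = 0.0182) and HNRNPA0 (0.20, adjusted p = 0.0405), both of the A/B family that silences exons. HNRNPA2B1 stood at 1867, 1887 and 2016 CPM with CR31B and 1573, 1676 and 1747 CPM with DMSO, without overlap, and at 1589.5 and 1908 CPM in pair 1. HNRNPA0 stood at 759, 686 and 808 CPM with CR31B and 639.8, 631 and 694 CPM with DMSO, with overlap, and at 602 and 746 CPM in pair 1. With offsets for GC content and length neither was called, and the HNRNPA0 estimate turned to -0.08 (adjusted p = 0.454). Of the 16 alternatives, HNRNPA2B1 was called under 10 and HNRNPA0 under 6, so both calls are uncertain. PTBP2, the neural paralogue of PTBP1, stood at 84.3, 73.3 and 83.4 CPM with CR31B and 106, 107 and 103 CPM with DMSO. It fell by 0.39 ± 0.061 (SE; log2, adjusted p = 0.000536), the lowest estimate of the 42 genes, and pair 1 gave 116 CPM with CR31B and 90.8 CPM with DMSO; with offsets for GC content and length the estimate was -0.70. PTBP1, a repressor of neuronal exons that also silences PTBP2, stood at 423, 320 and 423 CPM with CR31B and 452, 464 and 514 CPM with DMSO. CR31B replicate 3 was the lowest library. PTBP1 fell by 0.29 ± 0.10 (SE; log2, adjusted p = 0.0379), and the call was lost without CR31B replicate 3 (log2 fold change -0.17, adjusted p = 0.052), without DMSO replicate 3 (-0.32, adjusted p = 0.052) and without DMSO replicate 4 (-0.23, adjusted p = 0.137). The estimate was thus smaller without CR31B replicate 3 and not smaller without DMSO replicate 3. In pair 1 PTBP1 was 464 CPM with CR31B and 441 CPM with DMSO.

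HNRNPA1, a main exon silencer and the gene of highest level per kilobase among the 42, was level: 1482, 1539 and 1580 CPM with CR31B, 1526, 1540.5 and 1550 CPM with DMSO, and 1495 and 1520.5 CPM in pair 1. Its log2 fold change was -0.00 (adjusted p = 0.966), and since the annotation names 74 pseudogenes for it, reads could be split among copies. The other genes that did not pass were HNRNPA3, HNRNPAB, HNRNPDL, HNRNPH1, HNRNPK, HNRNPM, HNRNPR and HNRNPUL1, and the 9 had log2 fold changes from -0.14 to 0.14. Of these, HNRNPK, a binder of cytosine-rich RNA, stood at 858, 776 and 929 CPM with CR31B and 849, 969.8 and 1017 CPM with DMSO (adjusted p = 0.19). HNRNPM stood at 414, 377 and 436 CPM with CR31B and 368, 414 and 448 CPM with DMSO (adjusted p = 0.993). The groups of both genes overlapped. With offsets for GC content and length HNRNPR was called lower (log2 fold change -0.24, adjusted p = 0.0215) and HNRNPAB higher (0.21, adjusted p = 0.0384). HNRNPAB and HNRNPUL1 passed when the replicate number was a block (adjusted p = 0.00982 and 0.0267). Together with SRSF4 they brought the members called with the block to 28, 21 higher and 7 lower, beside 51.1% of all genes called with it, 28.1% higher and 23.1% lower.

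Paralogues can be compared directly by their ratio within a library, which does not depend on the scaling of the libraries. Offsets for GC content and length differ between genes and were not applied to these ratios. The 9 ratios computed were chosen after the values were seen, on levels per kilobase and a log2 scale. The exact permutation p of 3 against 3 libraries cannot go below 0.1 (two-sided), which 8 of the 9 reached. Most of the ratios set a gene called in these libraries over a paralogue that was not. The choice itself favoured this lowest p, so the count adds no evidence, and the permutation leaves the replicate numbers aside. HNRNPH2 relative to HNRNPH1 was -0.55, -0.23 and -0.49 with CR31B and -1.37, -1.21 and -1.44 with DMSO, a difference of 0.92, and pair 1 gave a difference of -0.92. HNRNPF relative to HNRNPH1 differed by 0.89, and by -0.82 in pair 1. CLK2 relative to CLK1 was 1.73, 2.06 and 1.87 with CR31B and 1.22, 1.33 and 1.15 with DMSO, a difference of 0.65, with -0.49 in pair 1. SRPK2 relative to SRPK1 was -0.88, -0.75 and -0.86 with CR31B and -1.43, -1.47 and -1.52 with DMSO, a difference of 0.65, with -0.46 in pair 1. In each of these ratios the 3 CR31B values lay above the 3 DMSO values, and the difference in pair 1 had the other sign. SRSF3 relative to SRSF7 differed by 0.58, HNRNPU relative to HNRNPUL1 by 0.53, HNRNPD relative to HNRNPDL by 0.49 and TRA2A relative to TRA2B by 0.32, all with negative differences in pair 1. PTBP1 relative to PTBP2 differed by 0.09 with overlapping groups (exact permutation p = 0.2).

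**Figure D5:**
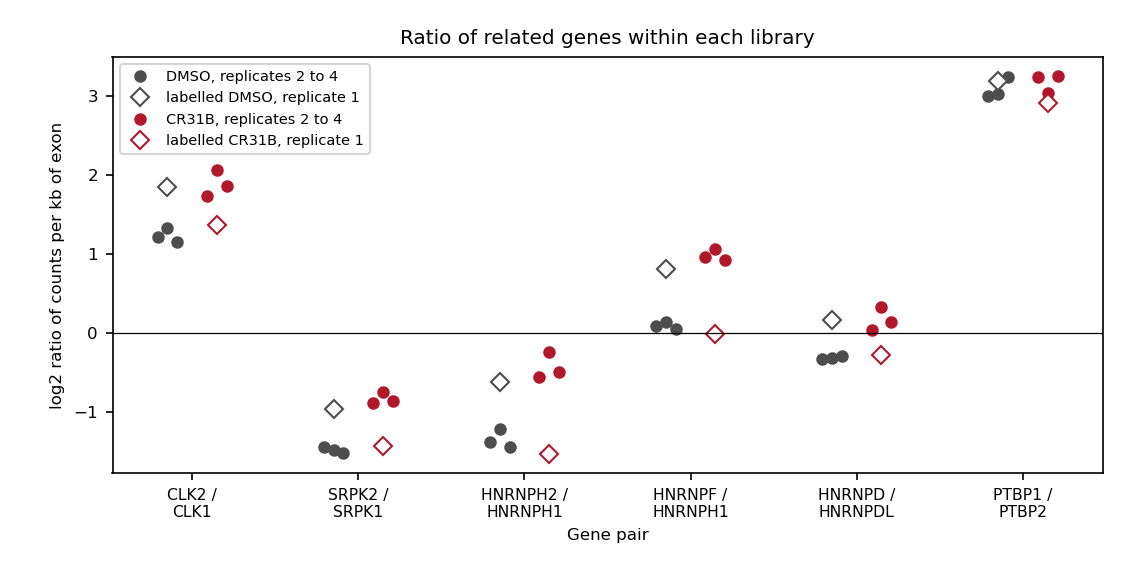
log2 ratio of 2 paralogues in each library, on CPM per kilobase, with replicates 2 to 4 as filled dots and replicate 1 as an open diamond. The ratio of HNRNPH2 to HNRNPH1 is higher in the 3 CR31B dots by 0.92, and the ratio of PTBP1 to PTBP2 overlaps between groups.

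The 11 genes with the larger calls and PTBP2 lay as follows on GRCh38 in GENCODE release 29. The SR protein genes were SRSF3 (ENSG00000112081, chr6:36594353-36605600, plus strand), SRSF8 (ENSG00000263465, chr11:95067197-95071224, plus strand), SRSF12 (ENSG00000154548, chr6:89095959-89118081, minus strand) and TRA2A (ENSG00000164548, chr7:23504780-23532041, minus strand). The kinase genes were CLK2 (ENSG00000176444, chr1:155262868-155278491, minus strand) and SRPK2 (ENSG00000135250, chr7:105110704-105399308, minus strand). The hnRNP genes were HNRNPF (ENSG00000169813, chr10:43385617-43409166, minus strand), HNRNPH2 (ENSG00000126945, chrX:101408295-101414133, plus strand), HNRNPLL (ENSG00000143889, chr2:38561978-38603586, minus strand), HNRNPU (ENSG00000153187, chr1:244840638-244864560, minus strand) and HNRNPUL2 (ENSG00000214753, chr11:62712630-62727472, minus strand). The gene of the lowest estimate was PTBP2 (ENSG00000117569, chr1:96721665-96823738, plus strand).

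Per kilobase of merged exons, which includes rarely used exons, the single-end DMSO levels spanned from HNRNPA1 (302 CPM per kilobase), HNRNPAB (278), HNRNPK (185), HNRNPA2B1 (179.7) and SRSF2 (169.9) down to HNRNPUL2 (4.05), CLK3 (1.85) and CLK4 (1.52). Kinase genes were low, with SRPK1 at 34.3 and CLK2 at 26.0 CPM per kilobase. Summed over each group and all 8 libraries, SR protein genes held 3622 to 4644 CPM, kinases 503 to 620 CPM and hnRNPs 12609 to 15633 CPM. Genes with a poison exon of the strict search were spread over the calls: 6 of the 19 higher genes, 3 of the 6 lower genes and 3 of the 17 not called. Annotated decay transcripts were found for 13 of the 19 higher genes (68.4%), 5 of the 6 lower (83.3%) and 15 of the 17 not called (88.2%).

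The genes around these regulators were described with the same fit, in which 23.8% of all genes were higher and 17.6% lower (median -0.01). Of 24 SR-related proteins, which have arginine-serine tails but act as coactivators or links to polymerase, 10 rose and 5 fell (median log2 fold change 0.09), with SCAF8 (0.98) and SCAF11 (0.93) highest and SRRM1 (-0.27) and SREK1 (-0.26) lowest. With offsets for GC content and length this list had 6 higher and 6 lower (median 0.03). A list of SR kinases of other families and the importins TNPO1 and TNPO3 had 5 genes tested. Of these, 4 rose and none fell (median 0.51), among them DYRK1A (0.80) and TNPO3 (0.62), the importin of phosphorylated SR proteins. With the offsets 3 were higher and 1, TNPO1, was lower at -0.34 (median of the list 0.47). Among 30 other tested splicing regulators, 18 rose and 3 fell (median 0.23), led by CELF4 (1.30) and RBFOX3 (1.06), both neuronal, with KHDRBS1 (-0.46) and SFPQ (-0.34) lowest. With the offsets 13 were higher and 4 lower (median 0.11). Of 15 factors of nonsense-mediated decay and the exon junction complex, 8 rose and 2 fell (median 0.26), with SMG9 (0.81) and UPF3B (0.66) higher and CASC3 (-0.27) and MAGOHB (-0.22) lower, and with the offsets 7 were higher and 3 lower (median 0.16). The 3 lists of core spliceosome proteins had medians at or below 0. U1 and Sm proteins had 2 higher and 6 lower of 14 (median -0.11), U2 and branch site factors 2 higher and 5 lower of 16 (median -0.06), and tri-snRNP and catalytic factors 9 higher and 7 lower of 28 (median -0.01). With the offsets these counts were 2 higher and 4 lower, 3 higher and 5 lower, and 7 higher and 4 lower. Examples there were LUC7L2 (0.67), SF3A3 (0.64) and AQR (0.61) above 0 and SF3A1 (-0.47), LSM3 (-0.35) and SNRPE (-0.34) below.

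Across all 8 libraries as labelled, with layout as a term, none of the 42 genes was called by edgeR (adjusted p from 0.707 to 0.999), and neither was any of the 16518 genes tested (0%). At an unadjusted p under 0.05 edgeR gave 205 genes and 0 members, and DESeq2 and limma voom also called 0 members after adjustment. The members' estimates in that fit ran from -0.21 to 0.41. The difference between pair 1 and pairs 2 to 4 was tested as an interaction of treatment and layout, in which the spread comes from the single-end libraries alone. This interaction contains the single-end difference itself, so calls shared with the single-end fit add no separate evidence. It was called for 25 members (59.5%), beside 42.5% of all genes. Of these, 24 were also among the 25 called in the single-end libraries, with HNRNPAB in addition and without PTBP1. For the 19 genes called higher, pair 1 differences ran from -0.93 to -0.19, and for the 6 called lower from 0.07 to 0.35.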

How the data were processed

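The deposited table holds whole-number read counts per Ensembl gene. Per the submitters' processing notes, the authors used FastQC 0.11.7, STAR 2.7.2b, edgeR 3.36.0, limma 3.50.3 and GRCh38, with no roles given; the gene annotation and strand setting of the counting are not given in the sources used here, so reads of a gene and an antisense partner cannot be told apart. The labels give polyA RNA and, for the library, a small RNA kit.

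Counts were tested across all genes with edgeR 4.0.16 (filterByExpr, TMM, quasi-likelihood test, two-sided, Benjamini-Hochberg over all genes tested, threshold 0.05) in R 4.3.3. The 6 single-end libraries were fitted by treatment. All 8 were fitted with layout and treatment, and with their interaction. CPM values are TMM-normalised over all 8 libraries, pair differences use a prior count of 1, and paralogue ratios were compared by exact permutation. Alternatives used DESeq2 1.42.0, limma 3.58.1 and other scalings, filters and blocks. The single-end fit and the fit of all 8 libraries were tested on simulated data. The simulation had no layout effect and no reversed pair, and its variation was near that of the single-end libraries. The interaction was not simulated. The common biological coefficient of variation that edgeR estimated was 7.46% in the single-end fit and 16.3% with all 8 libraries. The latter fit has a single treatment term for all pairs, so the opposite differences of pair 1 count as variation in it. That figure is therefore not a measure of biological variation alone. No library was a copy of another: within groups the mean chi-square per gene was at least 7.16. In the single-end libraries, deviations from the group mean correlated at 0.206, 0.384 and 0.157 for replicates 2, 3 and 4. For unlike numbers the values were -0.303 to 0.0888. The deviations within a group are tied to each other, so these correlations are not independent. From them the numbers were judged to pair the libraries. The reported fit nevertheless has no replicate block, and the fit with it was an alternative.

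Positions, transcripts and sequences are from GENCODE release 29 (GRCh38), which holds 58515 of the 58787 identifiers. The members and gene lists were chosen with earlier results of these data known. Values by library are given for all kinases, the 6 SR and 8 hnRNP or PTBP genes called with the largest absolute change, and the gene of highest level per kilobase in each of these groups. PTBP1, PTBP2, HNRNPH1, further members given with values by library and the paralogue ratios were added once their values had been seen. Of the other lists, up to 2 called genes per direction with a mean of at least 5 CPM are named.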

Additional observations from a re-analysis of the deposited data

Results flagged for a closer look

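In the 4 libraries of each group, 17 of the 44 sets of CPM values examined (22 genes in 2 groups) held a library far from the others. Chance flags about 1 in 20 sets, but it is no yardstick here: most of the 22 genes were chosen for their change in replicates 2 to 4 with the direction of pair 1 known, and all sets share the same 8 libraries. In all 17 it was the library labelled replicate 1. The ratio of its gap to the whole range of the group in CR31B was 0.972 for HNRNPC, 0.955 for SRSF8, 0.95 for SRSF12, 0.895 for HNRNPD, 0.889 for CLK2, 0.888 for SRPK2 and 0.834 for HNRNPH2. In DMSO it was 0.967 for CLK2, 0.947 for TRA2A, 0.942 for SRPK2, 0.93 for HNRNPH3, 0.91 for HNRNPC, 0.881 for SRSF3, 0.877 for TRA2B, 0.854 for HNRNPF, 0.839 for SRSF8 and 0.836 for HNRNPLL. HNRNPC, SRSF8, CLK2 and SRPK2 stood out in both groups.

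The treatment difference depended on the layout for 25 of the 42 genes by edgeR's interaction test, beside 42.5% of all genes tested. The layout is the same split as pair 1 against pairs 2 to 4. A dependence on the layout itself therefore cannot be told apart from whatever else sets pair 1 apart, its labels included.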

How the results depend on the processing

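In the single-end libraries 17 of the 25 genes called were called under each of the 16 alternatives (15 higher, and SRSF11 and PTBP2 lower), 8 were lost under at least 1, and 12 others were gained under at least 1. Members called lower, 6 in the reported fit, were 11 under upper quartile scaling, 11 under total count scaling and 13 under offsets for GC content and length together with the replicate block. The replicate block alone gave 28 called (21 higher, 7 lower) and lost none of the 25. Leaving out 1 library at a time gave 20 to 27 called, 15 to 22 higher and 2 to 7 lower, the 2 without DMSO replicate 4. In all 8 libraries no member was called under the alternatives that kept both replicate 1 libraries; leaving out libraries gave 0 to 25 called, 0 to 19 higher and 0 to 6 lower, with 25 without CR31B replicate 1, without DMSO replicate 1 or without both. Genes at an unadjusted p under 0.05 ran from 40 to 722 where 0 were called. The interaction gave 21 to 28 members; upper quartile scaling moved its median over all genes from 0.02 to 0.23, total counts to 0.19 and no filter to 0.13.

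Over all alternatives 10 of the 42 genes took both signs in the single-end libraries, among them HNRNPA0 (-0.080 to 0.26) and HNRNPR (-0.24 to 0.064), and 13 in all 8; the cause was not tested. Among the 22 genes named by the stated rule, CLK1, SRSF2 and HNRNPA1 did so, and CLK4 in all 8 libraries only. CLK1 was called higher by edgeR in the single-end libraries without CR31B replicate 3 (0.17, adjusted p = 0.0481). HNRNPA1 was called lower there by edgeR with offsets for GC content and length together with the replicate block (-0.13, adjusted p = 0.00854). In the single-end libraries CLK1 was -0.020 with upper quartile scaling and -0.00217 with total counts, SRSF2 was -0.050 and -0.033, and leaving out libraries gave SRSF2 -0.020 to 0.16 and HNRNPA1 -0.023 to 0.023. In all 8 libraries CLK1 was -0.00559 with RLE scaling, -0.041 with upper quartile, -0.034 with total counts, -0.0097 with no filter, -0.00920 with a filter of 1 CPM, -0.00555 with DESeq2, -0.00257 with limma voom, -0.0027 with the replicate block and -0.00038 without the layout term. SRSF2 there was -0.030 with upper quartile, -0.024 with total counts, -0.00637 with offsets for GC content and length and -0.014 with these and the block. Leaving out libraries gave CLK1 -0.073 to 0.079, CLK4 -0.0057 to 0.18, SRSF2 -0.057 to 0.082 and HNRNPA1 -0.025 to 0.0075. The interaction without single libraries and the gene lists under each alternative (68 to 87 genes called, 81 as reported) were added after seeing the data.

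With 3 single-end libraries a group and 1 cell line, the values describe these libraries only. Pair 1 had the opposite sign for all 25 genes called, so the directions rest on the labels of the single-end libraries. Whether the labels of pair 1 were exchanged was not tested. Gene-level counts cannot show which isoforms changed.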
